A study of Homo sapiens with 9 samples.

Results

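The NRF2 pathway genes described here are 9 genes chosen by name: NFE2L2, KEAP1, MAFG, NQO1, HMOX1, SRXN1, TXNRD1, OSGIN1 and PGD. The deposited counts carry 58395 Ensembl identifiers, of which 16761 had enough reads to be tested, and all 9 genes were found and tested. RNA was taken from MDA-MB-231, a triple-negative human breast cancer cell line kept in DMEM with serum and antibiotics, 96 h after transfection with an siRNA. The 9 libraries fall into 3 groups of 3, namely siNC, which received a nontargeting control siRNA, and siZIP7_1 and siZIP7_2, which received different siRNAs directed at ZIP7 and are called the first and the second siRNA below. ZIP7 is the protein of SLC39A7, which moves zinc out of the endoplasmic reticulum and the Golgi. Each ZIP7 group received 1 single siRNA, and these came from different suppliers, so an effect of the knockdown and an effect of that siRNA's own sequence cannot be told apart within a group. Nothing states that the 3 libraries of a group came from separate cultures, so p-values measure the spread between these libraries, which may be technical.

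NRF2, the protein of NFE2L2, is a transcription factor of the response to oxidants and electrophiles. In unstressed cells KEAP1 holds it for a CUL3 ubiquitin ligase that marks it for destruction, so its activity is set largely by the protein's stability and less by its mRNA. When KEAP1 is modified by an electrophile, NRF2 gathers in the nucleus, pairs with a small MAF protein such as MAFG, and binds the antioxidant response element (ARE) near its target genes, where the repressor BACH1 competes with it. Among the targets are NQO1, HMOX1, SRXN1, TXNRD1, OSGIN1 and PGD, which serve quinone reduction, heme breakdown, the thioredoxin system and the supply of NADPH.

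The core of the ARE was looked for as TGACNNNGC or TGAGNNNGC, on both strands, in the RefSeq promoter windows of GRCh38.p14, which run from 250 bases before to 50 bases after a transcription start. Of the 8 genes with a window, 6 held a match (75%), beside 33.7% of all genes with a window. NFE2L2, KEAP1 and TXNRD1 had 2 windows each, which gives more room for a match. Of all genes with only 1 window, 29.4% held one. HMOX1 had no window in that table. The windows of MAFG and SRXN1 held no match, which says only that these letters are not in them. The 6 sequences below show where the letters of the core occur near the starts of these genes. They read 5′ to 3′ on the gene's own strand, with the 9-base core in capitals, and where a gene had several matches the match nearest its start and wholly before it was taken.
NFE2L2 (chr2:177264132-177264157, minus strand, core 16 bases before the start): gctggccgtcTGAGCCGGCgcggccc
KEAP1 (chr19:10502784-10502812, minus strand, core 31 bases before the start): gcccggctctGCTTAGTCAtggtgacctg
NQO1 (chr16:69726661-69726689, minus strand, core 119 bases before the start): tcctggagctGCAGCCTCAgcatcctccg
TXNRD1 (chr12:104215670-104215698, plus strand, core 99 bases before the start): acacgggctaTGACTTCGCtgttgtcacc
OSGIN1 (chr16:83953131-83953159, plus strand, core 99 bases before the start): acgggcccctGCTGACTCAcgcttatgaa
PGD (chr1:10398853-10398881, plus strand, core 201 bases before the start): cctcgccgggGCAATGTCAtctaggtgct
The core in NFE2L2 and TXNRD1 reads in the gene's own direction and in the other 4 on the opposite strand. The match in OSGIN1 also holds the AP-1 motif TGAGTCA. A match is a description of the sequence and not evidence of binding, and no binding was measured here.

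The number of reads assigned to genes ranged from 24153785 to 30454419 over the libraries. Reads that fell on no gene were 7.43% to 8.28% of counted and unassigned reads in siNC, 7.80% to 9.62% in siZIP7_1 and 9.995% to 11.5% in siZIP7_2, and their part in the results was not tested. Levels are given as CPM, counts per megaread, where the library size is adjusted by edgeR's TMM factor. CPM is a share of the RNA in a library, so fewer cells with a transcript and less of it per cell cannot be told apart. Of the receptor genes that define a triple-negative line, ESR1 was at a mean of 0.0887 CPM in siNC and PGR at 0 in every siNC library, while ERBB2 was at a mean of 74.2 CPM. The 4 mesenchymal markers (VIM, CD44, FN1, AXL) summed to 8539 to 9079 CPM in siNC, 5308 to 5590 in siZIP7_1 and 5964 to 6189 in siZIP7_2. The 6 luminal markers (EPCAM, CDH1, GATA3, FOXA1, KRT8, KRT18) summed to 464 to 489 CPM, 883 to 907 CPM and 385 to 403 CPM in the same order. The 7 markers of leukocytes, endothelium and fat (PTPRC, CD3E, CD14, PECAM1, CDH5, ADIPOQ, PLIN1) summed to 5.16 to 6.17 CPM, 1.85 to 2.29 CPM and 21.1 to 24.2 CPM, with ADIPOQ at 0 in every siNC and CD3E and ADIPOQ at 0 in every siZIP7_2 library. The sums hide markers that went other ways in the edgeR test described below. Of the mesenchymal markers, 3 fell with siZIP7_1 and FN1 did not pass the test, and 3 fell with siZIP7_2 while CD44 rose. Of the luminal markers, 4 rose with siZIP7_1, GATA3 fell and FOXA1 did not pass the test. With siZIP7_2, 4 luminal markers fell while CDH1 and FOXA1 rose. The part of these shifts in the results below was not tested.

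The targeted gene was low in every knockdown library. SLC39A7 (chr6:33200445-33204439, GRCh38) was at 321, 343 and 322 CPM in siNC, at 35.4, 32.9 and 38.6 CPM with siZIP7_1 and at 20.5, 19.5 and 17.6 CPM with siZIP7_2. It fell by 89.1% with siZIP7_1 and by 94.2% with siZIP7_2, and its level was also lower with the second siRNA than with the first, by 46.2% (edgeR adjusted p = 4.89e-13).

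Knockdown with either siRNA was followed by changes in both directions among the NRF2 pathway genes. With siZIP7_1, HMOX1, MAFG and TXNRD1 rose and SRXN1, NQO1, KEAP1, PGD and NFE2L2 fell, while OSGIN1 did not pass the test. With siZIP7_2, HMOX1, SRXN1, MAFG, OSGIN1, TXNRD1 and NFE2L2 rose and NQO1 and PGD fell, while KEAP1 did not pass the test. A call here is an adjusted p under 0.05 in edgeR's quasi-likelihood test, fitted to all genes and adjusted over all of them. Calls were common in these data. With siZIP7_1, 3 of the 9 genes were called higher and 5 lower, where 34.8% of all genes tested were called higher and 35.9% lower. With siZIP7_2, 6 were called higher and 2 lower, where 38.5% of all genes were called higher and 39.3% lower. Comparing siZIP7_2 with siZIP7_1 directly, 8 were higher and 1 lower, where 38.1% of all genes were higher and 40.6% lower. The libraries of the groups compared did not overlap for 8 of the 9 genes with siZIP7_1, as for 72.1% of all genes, for 8 with siZIP7_2, as for 78.7%, and for 9 between the siRNAs, as for 79.7%. A test against a change of 1.8-fold (glmTreat in edgeR) was passed by 2 of the 9 genes with siZIP7_1, NQO1 and SRXN1, beside 16.9% of all genes. It was passed by 4 with siZIP7_2, HMOX1, MAFG, NQO1 and SRXN1, beside 24.7%, and by 2 between the siRNAs, OSGIN1 and SRXN1, beside 28.2%. The median log2 fold change of the 9 genes was -0.14 with siZIP7_1, 0.64 with siZIP7_2 and 0.35 between the siRNAs, where the medians over all genes tested were -0.0069, -0.0018 and -0.022. Under upper-quartile scaling the median over all genes with siZIP7_2 moved to 0.10, and all 9 genes kept their calls. The comparisons with siNC share the same control libraries, so their values are set side by side here and are not independent of each other.

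**Figure D1:**
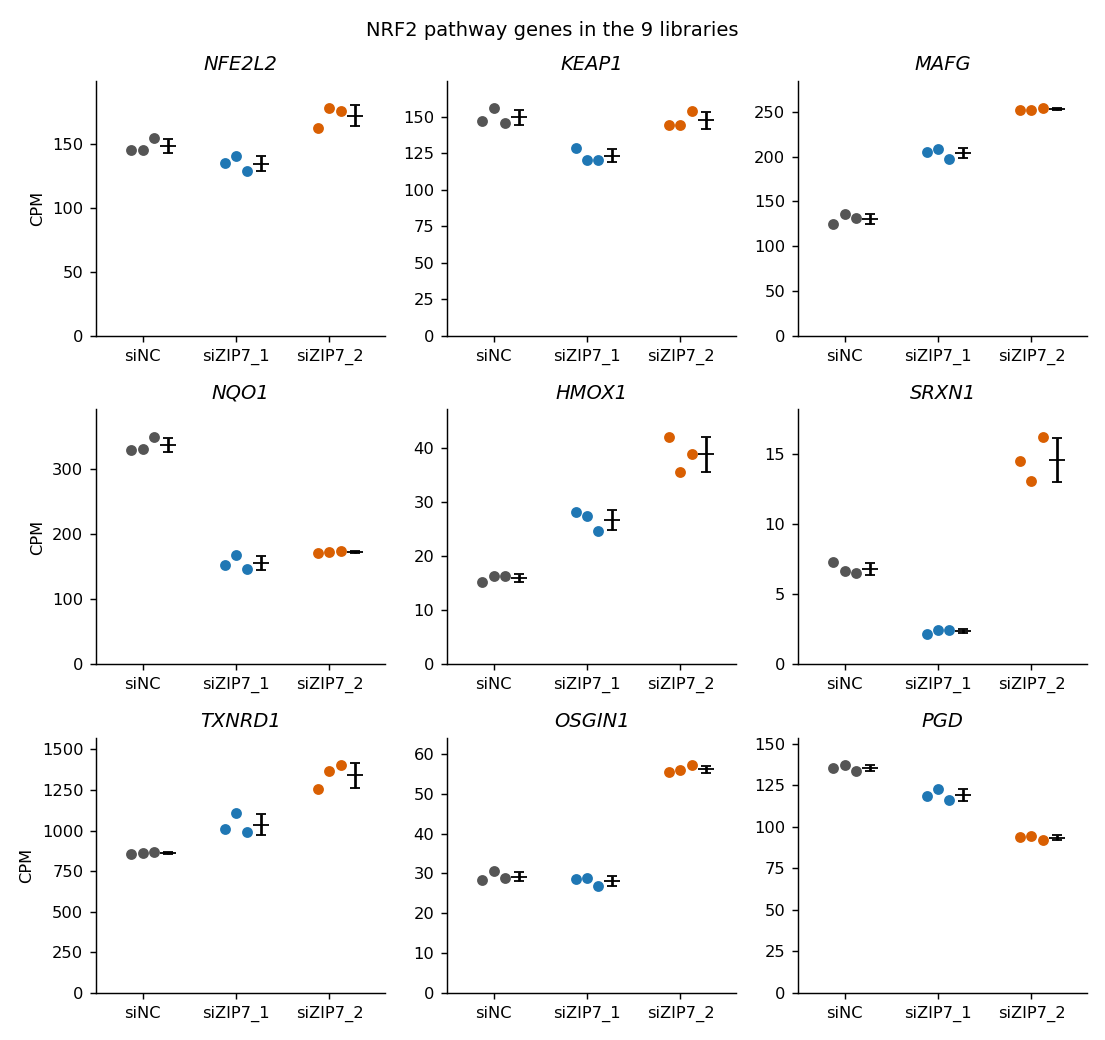
Level of each NRF2 pathway gene in the 9 libraries, in CPM on linear axes that start at 0, with 1 point per library and a horizontal bar with whiskers for the mean and SD of the 3 libraries of each siRNA group. The siNC and siZIP7_1 points overlap for OSGIN1 and the siNC and siZIP7_2 points for KEAP1. In every other pairing of a knockdown group with siNC the points are apart, and NQO1 is the gene that lies far below siNC with both siRNAs.

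The transcript of NRF2 itself moved little. NFE2L2 (chr2:177227595-177392697, minus strand; the GRCh38 positions of all genes are those of GENCODE release 29) was at 146, 146 and 155 CPM in siNC, at 135, 141 and 129 CPM with siZIP7_1 and at 163, 178 and 177 CPM with siZIP7_2. The siZIP7_1 libraries all lay below siNC and the siZIP7_2 libraries all above it, though by small margins. Against siNC the log2 fold change of NFE2L2 was -0.14 for the first siRNA (SE 0.049, edgeR adjusted p = 0.0132) and 0.22 for the second (SE 0.049, adjusted p = 2.39e-04). Between the siRNAs it was 0.35, with an edgeR adjusted p of 1.61e-07. The fall with siZIP7_1 rested on single libraries, since without siNC replicate 3 it was -0.099 (edgeR adjusted p = 0.121) and without siZIP7_1 replicate 3 it was -0.11 (adjusted p = 0.0905). Other genes overlap 20.9% of the exonic length of NFE2L2, and AGPS, on the opposite strand, is the only one of them with over 65 counts in any library.

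KEAP1, the adaptor that hands NRF2 to the ubiquitin ligase, fell with the first siRNA, and with the second it did not pass the test. KEAP1 (chr19:10486120-10503741, minus strand) was at 147, 156 and 146 CPM in siNC, at 128, 121 and 120 CPM with siZIP7_1 and at 144, 144 and 154 CPM with siZIP7_2. The siZIP7_2 libraries lay within or just below the range of siNC, and the siZIP7_1 libraries lay below both. It fell by 17.6% with siZIP7_1 (log2 fold change -0.28, SE 0.048, edgeR adjusted p = 6.66e-06). For the second siRNA its log2 fold change was -0.020, with a 95% confidence interval of -0.12 to 0.077 (edgeR adjusted p = 0.706), and its sign turned under other scalings. The difference between the siRNAs was tested directly and was 0.26 (SE 0.048, edgeR adjusted p = 1.55e-05).

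MAFG, which encodes a small MAF partner of NRF2 and of BACH1, rose with both siRNAs. MAFG (chr17:81918270-81927714, minus strand) was at 125, 136 and 132 CPM in siNC, at 206, 209 and 198 CPM with siZIP7_1 and at 252, 253 and 254 CPM with siZIP7_2. The 3 groups did not overlap and stood in that order. The rise was 1.56-fold with siZIP7_1 (log2 fold change 0.64, SE 0.046, edgeR adjusted p = 4.21e-13) and 1.93-fold with siZIP7_2 (0.95, SE 0.046, adjusted p = 3.93e-17). The second siRNA gave the larger level by a log2 difference of 0.31 (edgeR adjusted p = 4.96e-07).

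NQO1 was the one gene of the 9 that fell past 1.8-fold with both siRNAs. It encodes a cytosolic enzyme that reduces quinones with NADH or NADPH and is widely used as a readout of NRF2. NQO1 (chr16:69706996-69726951, minus strand) was at 330.4, 331 and 350.2 CPM in siNC, at 152, 168 and 147 CPM with siZIP7_1 and at 172, 173 and 174 CPM with siZIP7_2. No knockdown library came near the siNC range. NQO1 fell by 53.8% with siZIP7_1 (log2 fold change -1.12, SE 0.050, edgeR adjusted p = 4.85e-18) and by 48.7% with siZIP7_2 (-0.96, SE 0.049, adjusted p = 1.27e-16). Only 8.73% of all genes tested had a lower log2 fold change with siZIP7_1, and 12.9% with siZIP7_2. The siRNAs differed by 0.15 (edgeR adjusted p = 0.00628), a difference that lost its call without siZIP7_1 replicate 3 (0.10, adjusted p = 0.0873) and with no filter on low counts (0.11, adjusted p = 0.0746). An antisense gene overlaps NQO1 but had at most 2 counts in any library.

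HMOX1 moved the other way. It encodes heme oxygenase 1, which opens heme to biliverdin, iron and carbon monoxide, and its promoter is also held down by BACH1. HMOX1 (chr22:35380361-35394214, plus strand) was at 15.1, 16.4 and 16.3 CPM in siNC, at 28.1, 27.4 and 24.6 CPM with siZIP7_1 and at 42.0, 35.5 and 38.9 CPM with siZIP7_2. All 3 groups were apart. It rose 1.68-fold with siZIP7_1 (log2 fold change 0.75, SE 0.074, edgeR adjusted p = 4.39e-10) and 2.43-fold with siZIP7_2 (1.28, SE 0.073, adjusted p = 1.18e-15), and by 0.54 on the log2 scale between the siRNAs (adjusted p = 3.10e-08). Its log2 fold change with siZIP7_2 lay above that of 87.4% of all genes tested.

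SRXN1, the gene of sulfiredoxin, which restores over-oxidised peroxiredoxins, went in opposite directions with the siRNAs. SRXN1 (chr20:646615-653370, minus strand) was at 7.26, 6.62 and 6.51 CPM in siNC, at 2.19, 2.47 and 2.45 CPM with siZIP7_1 and at 14.4, 13.1 and 16.2 CPM with siZIP7_2. These levels rest on 154 to 200 counts per library in siNC, 60 to 78 with siZIP7_1 and 372 to 421 with siZIP7_2. SRXN1 fell by 65.1% with the first siRNA (log2 fold change -1.52, SE 0.13, edgeR adjusted p = 1.04e-11) and rose 2.14-fold with the second (1.09, SE 0.097, adjusted p = 2.86e-11). The siRNAs differed 6.11-fold (log2 difference 2.61, SE 0.11, edgeR adjusted p = 1.77e-18). Another gene on the same strand, AL121758.1, covers 84.9% of the exonic length of SRXN1 and had at most 1 count in any library, so 406 bases of SRXN1 are not shared with it. Reads that fit several genes were set apart as ambiguous by the counting program. The counts of SRXN1 therefore come largely from that stretch, and its level per length is too low.

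TXNRD1 encodes cytosolic thioredoxin reductase, a selenoprotein, and was the most abundant of the 9. TXNRD1 (chr12:104215779-104350305, plus strand) was at 853, 863 and 869 CPM in siNC, at 1007, 1109 and 990.2 CPM with siZIP7_1 and at 1253, 1366 and 1402 CPM with siZIP7_2. The groups did not overlap and stood in the same order as for MAFG and HMOX1. The rise was 1.20-fold with siZIP7_1 (log2 fold change 0.26, SE 0.052, edgeR adjusted p = 4.66e-05) and 1.56-fold with siZIP7_2 (0.64, SE 0.052, adjusted p = 4.58e-12), with 0.37 between them (adjusted p = 1.84e-07).

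OSGIN1, an oxidative stress-induced growth inhibitor, rose with the second siRNA. OSGIN1 (chr16:83948282-83966332, plus strand) was at 28.2, 30.5 and 28.8 CPM in siNC, at 28.6, 28.9 and 26.7 CPM with siZIP7_1 and at 55.3, 56.1 and 57.1 CPM with siZIP7_2. The siZIP7_1 libraries overlapped those of siNC, with 1 of them below its lowest, and the log2 fold change was -0.055, with a 95% confidence interval of -0.18 to 0.066 (edgeR adjusted p = 0.413). With the second it rose 1.93-fold (log2 fold change 0.95, SE 0.056, edgeR adjusted p = 3.88e-15), which missed the test against 1.8-fold (adjusted p = 0.0515). The direct difference between the siRNAs was 2.00-fold (log2 difference 1.00, SE 0.056, edgeR adjusted p = 6.94e-16).

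PGD, the NADPH-producing 6-phosphogluconate dehydrogenase of the pentose phosphate pathway, fell with both. PGD (chr1:10398592-10420144, plus strand) was at 135, 137 and 133 CPM in siNC, at 118, 123 and 116 CPM with siZIP7_1 and at 94.1, 94.7 and 91.8 CPM with siZIP7_2. The groups were apart and stood in that order. PGD fell by 11.9% with siZIP7_1 (log2 fold change -0.18, SE 0.045, edgeR adjusted p = 6.80e-04) and by 30.8% with siZIP7_2 (-0.53, SE 0.046, adjusted p = 1.42e-11). It was the only one of the 9 genes that was lower with the second siRNA than with the first (-0.35, edgeR adjusted p = 6.29e-08).

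**Figure D2:**
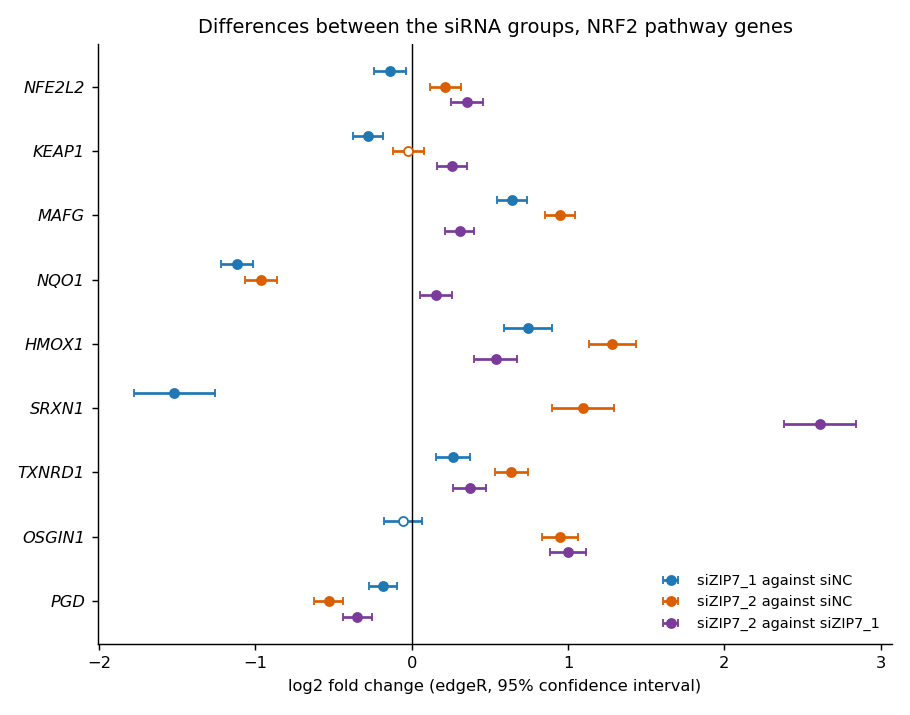
log2 fold change of each NRF2 pathway gene on the x axis, with its 95% confidence interval, for siZIP7_1 against siNC (blue), siZIP7_2 against siNC (orange) and siZIP7_2 against siZIP7_1 (purple). Filled points passed the test and open points did not. The blue and orange points of SRXN1, at -1.52 and 1.09, and of NFE2L2, at -0.14 and 0.22, lie on opposite sides of 0, and those of NQO1, at -1.12 and -0.96, on the same side.

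Compared per kilobase of exonic length, the 9 genes spanned a wide range of levels and changed places with knockdown. In siNC the order was TXNRD1 (128.5 CPM per kb), NQO1 (104), PGD (45.6), KEAP1 (39.7), MAFG (25.1), NFE2L2 (24.9), OSGIN1 (8.44), HMOX1 (6.62) and SRXN1 (2.52), with MAFG and NFE2L2 overlapping between libraries and all other neighbours apart. With siZIP7_1 the levels per kb were 154 for TXNRD1, 47.9 for NQO1, 40.2 for PGD, 39.1 for MAFG, 32.7 for KEAP1, 22.6 for NFE2L2, 11.1 for HMOX1, 8.12 for OSGIN1 and 0.878 for SRXN1, and PGD and MAFG overlapped. With siZIP7_2 they were 199.8 for TXNRD1, 53.2 for NQO1, 48.4 for MAFG, 39.2 for KEAP1, 31.5 for PGD, 28.9 for NFE2L2, 16.2 for OSGIN1, 16.1 for HMOX1 and 5.40 for SRXN1, and OSGIN1 and HMOX1 overlapped. By full exonic length MAFG thus stood level with NFE2L2 in siNC and above it in both knockdown groups. The gap between TXNRD1 and NQO1 was wider in both knockdown groups than in siNC. Bases shared with other genes were not taken out of these lengths. They make up 84.95% of SRXN1, which has 406 unshared bases, 20.9% of NFE2L2, 17.7% of NQO1, 13.9% of OSGIN1 and 6.30% of MAFG. The places of these genes among their neighbours, and which neighbours overlap, are therefore uncertain. These include NQO1 beside TXNRD1 in siNC, OSGIN1 beside HMOX1 with siZIP7_2, and the order of MAFG and NFE2L2.

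**Figure D3:**
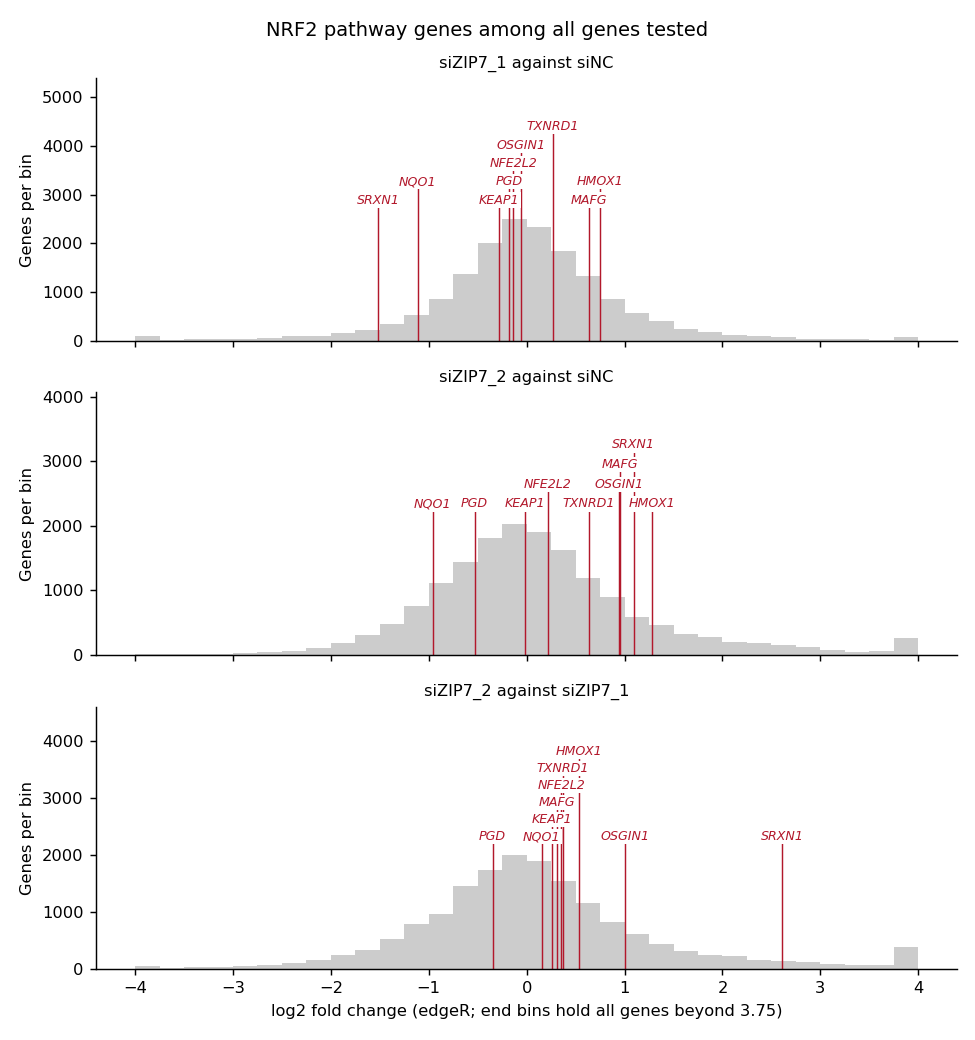
Number of genes per bin of log2 fold change (grey bars, bins of 0.25, all 16761 genes tested) in each comparison, with a red line at the value of each NRF2 pathway gene. The end bins collect all genes beyond 3.75 in either direction. With siZIP7_1 SRXN1 and NQO1 lie in the lower tail, above 4.93% and 8.73% of genes, and between the siRNAs SRXN1 lies above 95.3% of genes.

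The 6 genes with a promoter match did not all go the same way. With so few genes, and a match in 33.7% of all genes with a window, this cannot tell what part the element had. Of the 6 genes with a match, TXNRD1 rose and NQO1 and PGD fell with both siRNAs, and NFE2L2, KEAP1 and OSGIN1 had calls that differed between them. MAFG, whose window held no match, rose with both. Over the 9 libraries, the genes with the most similar profile to NFE2L2, by Pearson correlation of log2 CPM among 9747 genes whose mean reached 10 CPM, were TOR1AIP2 (r = 0.986), CNOT6 (0.986) and RSPRY1 (0.985). For NQO1 they were PHLDB2 (r = 0.998), MGST1 (0.997) and LGR4 (0.996). MGST1, the gene of microsomal glutathione S-transferase 1, had a mean of 96.1 CPM in siNC, and means of 23.6 and 30.1 CPM in siZIP7_1 and siZIP7_2. These correlations describe 3 groups of libraries with few points between them and carry no test.

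Among the regulators of NRF2 outside the 9 genes, more were called higher than lower against siNC. Of 18 regulators, 10 rose and 5 fell with siZIP7_1, 11 rose and 5 fell with siZIP7_2, and 8 were higher and 8 lower with the second siRNA than with the first. These are 55.6% higher and 27.8% lower with siZIP7_1, where 34.8% and 35.9% of all genes were called, and 61.1% and 27.8% with siZIP7_2, where 38.5% and 39.3% were. Between the siRNAs they are 44.4% in each direction, where 38.1% of all genes were called higher and 40.6% lower. Their median log2 fold changes were 0.12, 0.30 and -0.036, beside the medians near 0 over all genes given above. The 5 that fell with siZIP7_2 became 3 under upper-quartile scaling and with a filter of at least 10 counts in every library. SQSTM1, the autophagy receptor p62, which binds KEAP1 and is itself an NRF2 target, was at 529.6 to 541 CPM in siNC, 991 to 1024 CPM with siZIP7_1 and 2982 to 3284 CPM with siZIP7_2. Its log2 fold changes were 0.91 (SE 0.049) and 2.56 (SE 0.051), higher in all 6 knockdown libraries. Other genes overlap 22.0% of its exonic length.

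BACH1, the repressor that competes with NRF2 at the ARE and shares the small MAF partners, rose in both groups. BACH1 was at 70.0 to 77.7 CPM in siNC, 189 to 202 CPM with siZIP7_1 and 146 to 153 CPM with siZIP7_2, with log2 fold changes of 1.42 and 1.05. It was lower with the second siRNA than with the first, by a log2 difference of -0.37 (edgeR adjusted p = 6.69e-08). The other small MAF genes did not move alike. MAFK rose with both (0.61 and 0.81), while MAFF was slightly lower with siZIP7_1 (-0.12, edgeR adjusted p = 0.0221) and rose with siZIP7_2 (1.32). SYVN1, which encodes the HRD1 ubiquitin ligase of the endoplasmic reticulum, rose with both by the same amount (0.83 and 0.83), and the direct difference was 0.0029 (SE 0.048).

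Among the relatives of NRF2, NFE2L1, which encodes a factor anchored in the endoplasmic reticulum that drives proteasome genes, went in opposite directions. It was at 564 to 580.5 CPM in siNC, 272 to 275 CPM with siZIP7_1 and 735.5 to 821 CPM with siZIP7_2, so it fell by 1.06 and rose by 0.46 on the log2 scale. The direct difference between the siRNAs was 1.52 (SE 0.048, edgeR adjusted p = 9.84e-22). NFE2L3 fell with both (-0.28 and -0.35). The genes of the ligase that degrades NRF2 moved less, with CUL3 at 0.058 (not called) and 0.25 and RBX1 at 0.25 and -0.17. PALB2 (-0.21 and -1.31) and PGAM5 (-0.28 and -0.67), whose proteins bind KEAP1, fell with both, and BTRC fell with siZIP7_2 (-0.19).

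The wider list of NRF2 targets fell more often than it rose with the first siRNA. Of 36 other targets 32 could be tested, and CES1, ADH7, UGT1A6 and NR0B1 had too few reads. With siZIP7_1, 4 rose and 23 fell (12.5% and 71.9%), with a median log2 fold change of -0.52. With siZIP7_2, 11 rose and 16 fell (34.4% and 50%), with a median of -0.16. Between the siRNAs, 17 were higher with the second and 11 lower (53.1% and 34.4%), with a median of 0.28. Of all genes tested, 34.8% were called higher and 35.9% lower with siZIP7_1, and 38.5% and 39.3% with siZIP7_2. Between the siRNAs, 38.1% of all genes were called higher with the second and 40.6% lower.

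With siZIP7_1 the 4 targets with the largest changes were aldo-keto reductases, and with siZIP7_2 the largest was that of AKR1C1. AKR1C1 was at 6.49 to 8.75 CPM in siNC, 0.756 to 1.02 CPM with siZIP7_1 and 181 to 256 CPM with siZIP7_2, which gave log2 fold changes of -3.21 (SE 0.21) and 4.81 (SE 0.10). AKR1C3 was at 20.5 to 25.8 CPM, 4.12 to 5.03 CPM and 31.1 to 39.3 CPM, with -2.31 and 0.62. AKR1C2 (-3.16) and AKR1B10 (-2.40) fell with siZIP7_1, AKR1C2 from 38 to 58 counts per library in siNC to 4 to 7 counts, and neither passed the test with siZIP7_2. AKR1C1 and AKR1C2 are near-identical copies, so how reads were split between them is uncertain. With siZIP7_2, ABCC2, an export pump for conjugates, rose by 1.70 on the log2 scale, and CYP4F11 rose from at or below the floor of 3 counts per library in siNC, which makes it at least 4.15-fold higher. FTH1, the ferritin heavy chain, rose by 1.31 with siZIP7_2 while FTL, the light chain, fell (-1.24). FTH1 shares 62.4% of its exonic length with other genes and has many processed pseudogenes, so its value is uncertain. ALDH3A1 (-2.22) and ABCG2 (-1.23) also fell with siZIP7_2. With siZIP7_1 the targets that rose were SLC48A1, a heme transporter (1.06), BLVRB (0.93), IDH1 (0.55) and ABCC5 (0.27).

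**Figure D4:**
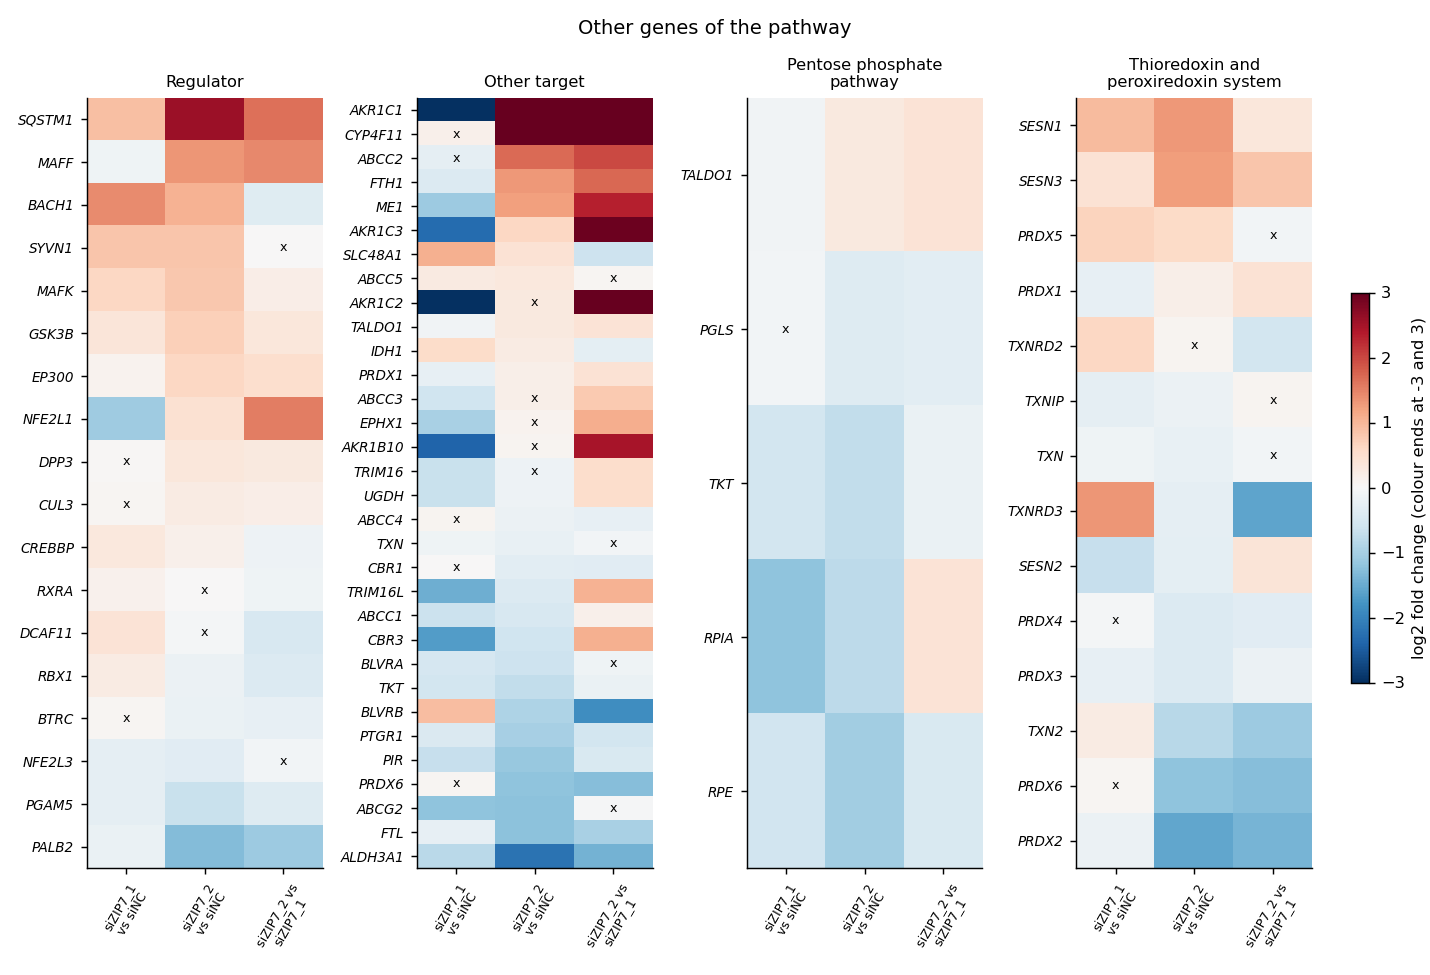
log2 fold change (colour, red higher and blue lower, with the scale ending at -3 and 3) of the tested genes of 4 lists in the comparisons named under each column, ordered by the value for siZIP7_2 against siNC. A cross marks a gene that did not pass the test. In the other targets 23 of 32 genes are called lower in the first column and 16 in the second, and in the pentose phosphate pathway 4 of 5 are called lower in both.

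Of the other pentose phosphate pathway genes, TKT and TALDO1 are also in the list of other targets. Of 5 genes, 4 fell and none rose with siZIP7_1 (median log2 fold change -0.54), and 4 fell and 1 rose with siZIP7_2 (median -0.74). The shares called lower over all genes were 35.9% and 39.3%, and the medians over all genes were -0.0069 and -0.0018. TKT, the transketolase (-0.54 and -0.74), RPIA (-1.20 and -0.78) and RPE (-0.57 and -1.03), both of which convert ribulose 5-phosphate, fell with both. TKT was at 323 to 348 CPM in siNC, 223 to 241 CPM with siZIP7_1 and 194 to 207 CPM with siZIP7_2, and the groups did not overlap. TALDO1, the transaldolase, was slightly lower with siZIP7_1 (-0.11, edgeR adjusted p = 0.0297) and higher with siZIP7_2 (0.30). PGLS, the lactonase, fell with siZIP7_2 (-0.39) and was not called with siZIP7_1 (-0.077).

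Around TXNRD1, of 14 genes of the thioredoxin and peroxiredoxin system, 6 rose and 6 fell with siZIP7_1 (median log2 fold change -5.4e-04), and 4 rose and 9 fell with siZIP7_2 (median -0.24). With siZIP7_1 that is 42.9% in each direction, near the 34.8% and 35.9% of all genes, and with siZIP7_2 28.6% higher and 64.3% lower, beside 38.5% and 39.3%. TXN, PRDX1 and PRDX6 are also counted among the other targets. TXN, the cytosolic thioredoxin that TXNRD1 reduces, fell slightly with both (-0.14 and -0.22). TXNRD2, the mitochondrial reductase, and TXNRD3 rose with siZIP7_1 (0.63 and 1.31), and with siZIP7_2 TXNRD2 was not called (0.087) and TXNRD3 fell (-0.26). The peroxiredoxins did not form a block. PRDX5 rose with both (0.66 and 0.58) and PRDX3 fell with both (-0.25 and -0.42). PRDX2 fell by 0.17 with siZIP7_1 and by 1.57 with siZIP7_2. PRDX6 fell with siZIP7_2 (-1.21) and was not called with siZIP7_1 (0.066), and PRDX4 had the same calls (-0.41 and -0.067). PRDX1 fell slightly with siZIP7_1 and rose slightly with siZIP7_2 (-0.24 and 0.19). The stress-induced sestrins SESN1 (0.95 and 1.30) and SESN3 (0.44 and 1.26) rose with both, while SESN2 fell with both (-0.70 and -0.30). TXN2, the mitochondrial thioredoxin, rose with siZIP7_1 (0.26) and fell with siZIP7_2 (-0.84), and TXNIP fell with both (-0.26 and -0.18).

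Around HMOX1 and NQO1, the list of heme breakdown and quinone reduction held 8 genes, of which 4 rose and 2 fell with siZIP7_1 and 3 rose and 4 fell with siZIP7_2. The shares were 50% higher and 25% lower, then 37.5% higher and 50% lower, beside 34.8% and 35.9%, then 38.5% and 39.3%, of all genes. BACH1 is also counted among the regulators, and BLVRA, BLVRB and SLC48A1 among the other targets. The 2 that fell with siZIP7_1 became 1 without siNC replicate 1, without siNC replicate 2 or without siZIP7_1 replicate 1. HMOX2, the constitutive heme oxygenase, was slightly lower with siZIP7_1 (-0.16, edgeR adjusted p = 0.0133) and was not called with siZIP7_2 (0.078). BLVRA, a biliverdin reductase, fell with both (-0.51 and -0.63). BLVRB, the other, went from 29.5 to 31.9 CPM in siNC to 54.9 to 59.6 CPM with siZIP7_1 and 15.4 to 16.6 CPM with siZIP7_2, with log2 fold changes of 0.93 and -0.93. NQO2, the paralogue of NQO1, was not called with siZIP7_1 (-0.038) and fell with siZIP7_2 (-0.53). FLVCR1, a heme exporter, fell with siZIP7_2 (-0.30), and CYB5R3 rose with both (0.18 and 0.25).

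The glutathione arm crosses the NRF2 targets. Of its 5 genes, GCLC, the catalytic subunit of the enzyme that makes the glutathione precursor, rose with both siRNAs (0.31 and 0.58), and SLC7A11 rose with siZIP7_2 (0.59) and was not called with siZIP7_1 (-0.020). GCLM, the modifier subunit, fell by 1.01 on the log2 scale with siZIP7_1 and was at -0.0099 with siZIP7_2 (not called), GSR fell with siZIP7_1 (-0.21), and GSS fell with siZIP7_2 (-0.70).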

How the data were processed

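The authors sequenced single reads from total RNA of 9 MDA-MB-231 samples on an Illumina HiSeq system and deposited raw read counts per Ensembl gene for each library, without normalization. The submitters' processing notes name Trim Galore 0.4.1, FastQC 0.11.2, STAR, HTSeq 0.6.1 and DESeq2 1.16.1. The genome build and the strand setting are not given in the sources used here. The counting program's summary lines were left out. They include the reads set apart as ambiguous, which were 2.67% to 2.91% of each library. Symbols, positions and exonic lengths came from GENCODE release 29 (GRCh38), which held 58275 of the 58395 identifiers.

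Groups came from the treatment label. The analysis used edgeR 4.0.16 in R 4.3.3: its low-count filter, TMM normalization and quasi-likelihood test in one fit of 3 groups with 6 residual degrees of freedom, with Benjamini-Hochberg adjustment over 16761 genes and a threshold of 0.05. In that test each gene's estimate of spread is drawn towards one shared over all genes. Its p-values therefore rest on more than the 6 residual degrees of freedom. The SE was derived from the fold change and the test's F value, and the biological coefficient of variation was 4.50%. The chi-squared per gene was 2.45 to 6.48 between libraries of a group and 157 to 288 across groups, so no pair agreed within counting error. The floor for a detected gene was 3 counts per library and covers counting error only. Members of the lists that were withheld are not reported here and are left out of the lists' counts. The 9 genes and the lists were chosen with earlier results of these data known, and the lists are described by counts and medians with no test. Named list genes are those with the largest called changes, up to 4 per direction in a comparison with siNC, and partners or paralogues of the 9 genes whatever their value, with the 3 genes most like NFE2L2 and NQO1. Alternatives were DESeq2 1.42.0, its size factors in edgeR, a replicate block, glmTreat, upper-quartile scaling, testing all genes without the low-count filter, requiring 10 counts in every library, fitting only the groups compared, and leaving out each library in turn.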

Additional observations from a re-analysis of the deposited data

Results flagged for a closer look

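NFE2L2 and SRXN1 moved in opposite directions with the siRNAs, and the difference between the siRNAs was itself past the threshold. For NFE2L2 the log2 difference of siZIP7_2 from siZIP7_1 was 0.35 (edgeR adjusted p = 1.61e-07), from -0.14 and 0.22 against siNC, of which the first lost its call without siNC replicate 3 or siZIP7_1 replicate 3. For SRXN1 the log2 difference was 2.61 (edgeR adjusted p = 1.77e-18), from -1.52 and 1.09 against siNC, on counts of 60 to 421 per library in a gene that shares most of its exonic length with another on the same strand. SLC39A7 itself was 46.2% lower with the second siRNA than with the first, and the part of that difference was not tested.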

How the results depend on the processing

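The counts of the 9 genes called higher and lower stayed within 1.5 times of those reported under every alternative except the test against 1.8-fold, which asks for a larger change. That test left 0 higher and 2 lower with siZIP7_1, 3 higher and 1 lower with siZIP7_2, and 2 higher and 0 lower between the siRNAs. KEAP1 with siZIP7_2, not called in any of these settings, changed sign to 0.012 with DESeq2 and also with its size factors in edgeR, to 0.086 with upper-quartile scaling and to 0.054 where every library had to hold 10 counts, and ran from -0.047 to 0.0081 with a library left out. No other log2 fold change of the 9 genes changed sign in the alternatives run. Apart from the losses given in the report for NFE2L2 with siZIP7_1 and NQO1 between the siRNAs, no gene of the 9 lost its call outside the 1.8-fold test. The deviations of same-numbered libraries had correlations of -0.25 to 0.24 over 9 pairs, beside -0.40 to 0.32 over 18 pairs of unlike numbers. With so few pairs these ranges cannot tell whether same-numbered libraries were handled together. With the number as a replicate block the counts were 3 higher and 5 lower with siZIP7_1, 6 and 2 with siZIP7_2, and 8 and 1 between the siRNAs, and no call of the 9 changed. In the list of heme breakdown, the 1 gene higher with the second siRNA than the first became 2 with DESeq2, with its size factors in edgeR, with upper-quartile scaling and with the stricter filter of 10 counts per library. All 9 genes passed the low-count filter, the lowest count being 60 for SRXN1, and 3 libraries per group limit the precision of small changes.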
